A study of Mus musculus with 8 samples.

Results

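The bulge-type follicle cells described here are 417 keratinocytes of mouse dorsal skin, chosen by measured genes of each cell. A cell was taken when it passed the quality limits and held at least 5 unique molecular identifiers (UMIs) of Krt5 and Krt14 together. It also had to hold at least 4 of the 8 genes Ptn, Grem1, Lhx2, Npnt, Nrtn, Bdnf, Tgm5 and Shisa2, and fewer than 4 of the 8 genes Id4, Scrg1, Gnmt, Sfrp1, Fhod3, Slc7a8, Pappa and Lgr5. Collagen genes had to stay under 1% of its UMIs, and Ptprc, the leukocyte antigen CD45, had to be at 0. The same limits without the 2 gene lists gave 4889 keratinocytes, of which the 417 cells are 8.53%. They are 3.75% of the 11118 cells that passed the quality limits, of 26231 barcodes in all. Mitochondrial counts were allowed up to 10%, and 134 of the 417 cells stayed within the 5% that the study's methods used. The median mitochondrial share of the bulge-type cells was above that of keratinocytes outside both lists in each of the 8 libraries, for example 6.03% against 4.47% in PBMCsec library 1 and 5.31% against 4.93% in PBMCsec library 3.

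Single-cell RNA of dorsal skin from female BALB/c mice aged 14 to 16 weeks was sequenced in 4 libraries after injection of PBMCsec, the factors that blood mononuclear cells secrete after irradiation, and in 4 libraries after vehicle. The study's methods describe injection into formed scars, whereas the labels call the tissue dorsal skin and name no wound, so that it is called dorsal skin here. The labels give neither the control solution nor the time point of a library, and do not say that the libraries came from separate animals, so that p-values measure the spread between these libraries, which may be technical. Totals lay between 14753926 and 37880651 UMIs per library.

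The bulge is the lowest permanent part of the hair follicle, and its outer layer houses stem cells from which the follicle is rebuilt in each hair cycle. These cells sit on the basement membrane below the opening of the sebaceous gland and are known for CD34, keratin 15 and the transcription factors Sox9, Lhx2, Nfatc1 and Tcf7l1. BMP signals keep them at rest and Wnt signals move them into growth, so that secreted inhibitors of both pathways are among their best known products. Bulge cells also deposit nephronectin, to which the arrector pili muscle attaches, and neurotrophic factors that reach the nerve endings around the follicle.

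The 8 marker genes set the choice. Among them Lhx2 lies at chr2:38339281-38369733, Grem1 at chr2:113746164-113758646 and Npnt at chr3:132881745-132950291 (mm10, GENCODE M21, whole genes). Because they chose the cells, their levels are given as a description, with no test. Levels are in CPM, the UMIs of a gene per 1000000 UMIs summed over the cells of 1 class in 1 library, and are averaged over the 7 libraries with at least 10 bulge-type cells. Ptn, which encodes the heparin-binding growth factor pleiotrophin, was found in 98.8% of the cells and reached 1469 CPM ± 261 (SD, n = 7). Lhx2, a LIM homeobox transcription factor, stood at 641 CPM ± 120 and was found in 91.1% of the cells. Shisa2, which encodes an endoplasmic reticulum protein that restrains Wnt and FGF receptors, stood at 475 CPM ± 142. The BMP inhibitor Grem1 stood at 225 CPM ± 98.7, the matrix protein gene Npnt at 197 CPM ± 81.8 and the transglutaminase gene Tgm5 at 223 CPM ± 64.7. The neurotrophic ligand genes Nrtn and Bdnf were found in 48.4% and 32.1% of the cells, at 168 CPM ± 59.7 and 84.9 CPM ± 19.1.

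A cell of the choice held 4 of the 8 markers in 113 cases, 5 in 130, 6 in 97, 7 in 54 and all 8 in 23. Just outside, 234 keratinocytes held 3 markers. The 113 cells just inside had 10287 CPM ± 2707 of Krt15 and 211 CPM ± 101 of Cd34 (6 libraries), against 4381 ± 1055 and 42.9 ± 33.7 in the cells just outside (7 libraries). Nfatc1 stood at 128 CPM ± 77.9 just inside and at 42.3 ± 24.7 just outside. In the 77 cells with 7 or 8 markers Cd34 reached 494 CPM ± 296 and Postn, the gene of the matrix protein periostin, 2578 ± 1002. The median depth was 6112 UMIs per bulge-type cell, 9447 per keratinocyte with under 4 genes of either list, 9199.5 per keratinocyte with 4 or more genes of the second list alone, and 9061.5 among the cells just outside. The part of depth in these contrasts was not tested.

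The label was checked against known bulge genes that were not used in the choice. Krt15, the type I keratin of the bulge, stood at 14433, 13076, 11757 and 13412 CPM in PBMCsec libraries 1 to 4, and at 15183, 11835, 10744 and 15950 CPM in vehicle libraries 1 to 4. Among other keratinocytes, meaning those that met neither gene list, it stood at 3556 CPM ± 948 (n = 7), and no such library reached the lowest bulge-type value. Cd34, the surface sialomucin by which bulge cells are sorted, stood at 330, 147, 392 and 338 CPM after PBMCsec and at 492, 363, 347 and 382 CPM after vehicle, against 10.45 CPM ± 7.09 in other keratinocytes. PBMCsec library 2, with 10 bulge-type cells, was the low one. Sox9, a transcription factor of follicle stem cells, stood at 793 CPM ± 190 against 290 ± 54.9, and Nfatc1, which holds stem cells at rest, at 136 CPM ± 31.7 against 20.8 ± 7.89. Leukocytes, taken by Ptprc among cells under the Krt5 and Krt14 limit of the choice, served as a guide to background from free RNA. Those with more UMIs of these keratins were left out, so that the shares are not a full measure of background. The median depth of the leukocytes kept was 3852.5 UMIs per cell, against 6112 in the bulge-type cells. A UMI of Krt15 was found in 11% of 2140 such cells, of Cd34 in 3.83% and of Sox9 in 2.06%, against 91.8%, 59.7% and 88.5% of the bulge-type cells. Krt15, Cd34, Sox9 and Nfatc1 thus stood above other keratinocytes in each of the 7 libraries, as the label has it. The repressor gene Tcf7l1 also stood above other keratinocytes in each of these libraries, at 37.2 CPM ± 4.33. It was higher still, at 80.6 ± 9.97, in the keratinocytes of the opposing list described next. The integrin gene Itga6, also listed as a bulge marker outside the choice, did not stand out in this way. It was not at least 2-fold higher than in other keratinocytes by the median library with every library on that side.

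**Figure D1:**
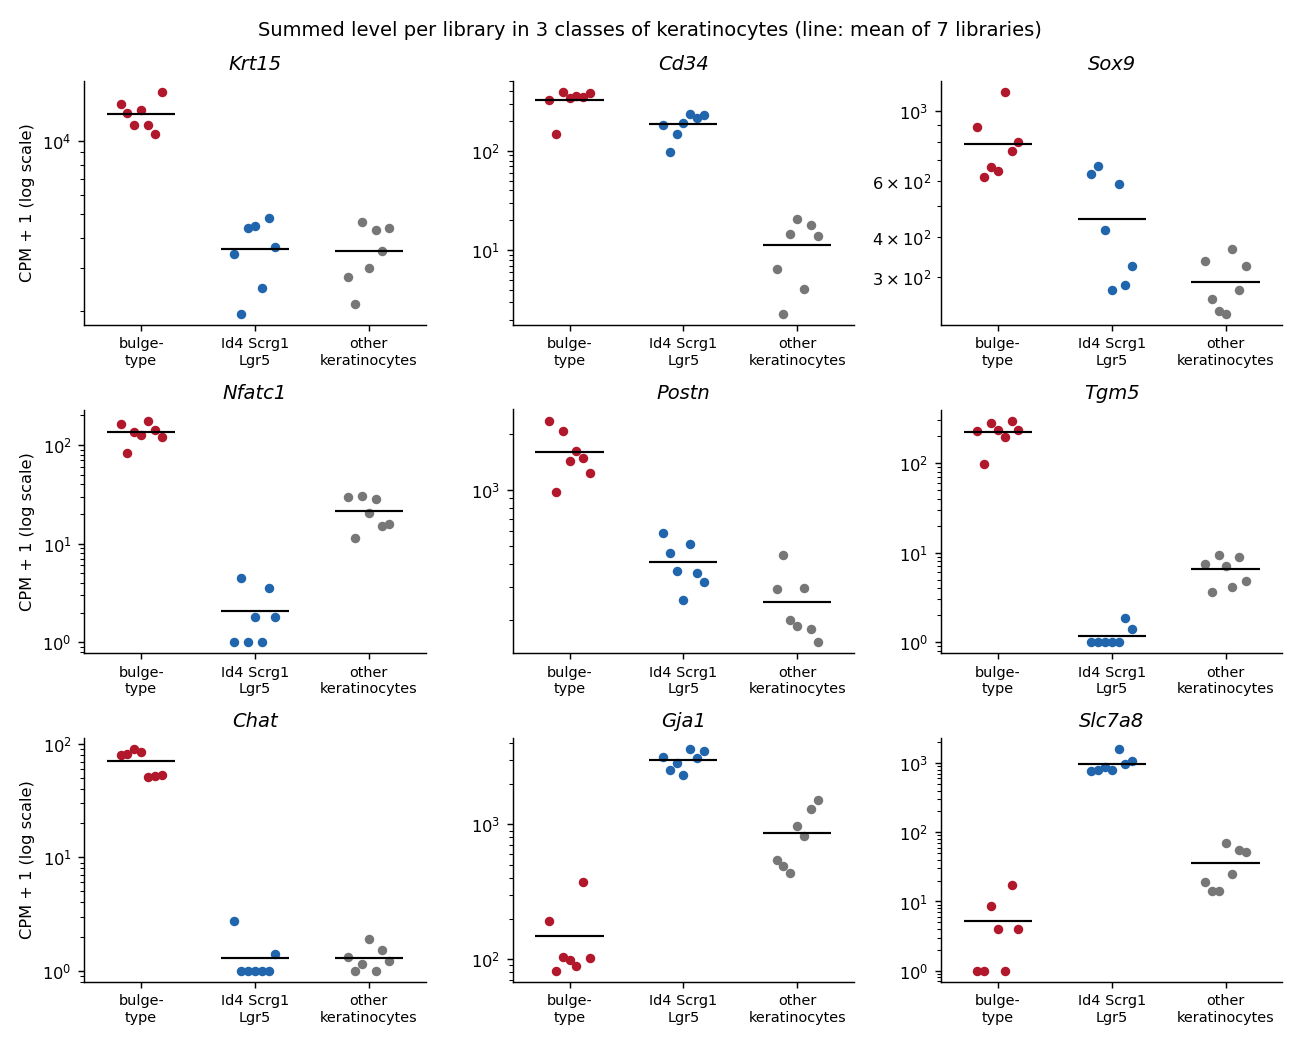
Summed level of 9 genes (CPM + 1, log scale) in 3 classes of keratinocytes, with 1 point for each of the 7 libraries that held at least 10 bulge-type cells and a line at the mean. Krt15, Nfatc1, Postn and Chat are highest in the bulge-type cells. Cd34 is also found in the Id4 Scrg1 Lgr5 cells, at 185.8 CPM against 328 in the bulge-type cells, and Gja1 is highest in the former. Tgm5 and Slc7a8 are genes of the 2 lists, so that the choice itself sets their place.

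The nearest relatives were 1140 keratinocytes with 4 or more genes of the opposing list Id4, Scrg1, Gnmt, Sfrp1, Fhod3, Slc7a8, Pappa and Lgr5 and under 4 of the 8 markers, called Id4 Scrg1 Lgr5 cells here. A further 243 keratinocytes held 4 or more genes of both lists and were kept out of both classes. The lists do not exclude each other within the bulge-type cells, since 57 of the 417 held no gene of the opposing list, 138 held 1, 140 held 2 and 82 held 3. Sfrp1, a secreted Wnt inhibitor, accounted for much of this and was found in 68.1% of the bulge-type cells at 549 CPM ± 207, against 1172 ± 376 in the Id4 Scrg1 Lgr5 cells. Lgr5, the R-spondin receptor of cycling follicle stem cells, stood at 124 CPM ± 56.2 against 331 ± 61.6. In cells with 3 opposing genes Nfatc1 stood at 49.8 CPM ± 26.4 (4 libraries), against 228 CPM ± 120 in those with 1 (7 libraries) and 211 ± 27.1 in those with none (3 libraries). Krt15 and Cd34 were instead lowest in the cells with no opposing gene, at 6941 CPM ± 493 and 208.5 ± 124, against 13004 ± 3038 and 333 ± 65.0 with 1, 15084 ± 3405 and 452 ± 89.9 with 2 (6 libraries), and 13153 ± 1047 and 353 ± 115 with 3.

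Genes were compared with the rest of the keratinocytes as ratios within a library, with 10 CPM added to both sides. Since every gene of these cells may follow the genes that chose them, the ratios are a description. Of 8717 genes found in at least 10% of a class, 257 (2.95%) were at least 2-fold higher in the bulge-type cells than in other keratinocytes by the median library and on the same side in every library, and 263 (3.02%) were lower. Against the Id4 Scrg1 Lgr5 cells 307 (3.52%) were higher and 495 (5.68%) lower. The median log2 ratio of all 8717 genes was 0.04 against other keratinocytes and -0.12 against the Id4 Scrg1 Lgr5 cells.

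The 20 genes that stood highest over other keratinocytes began with Cd34, with a median log2 ratio of 4.09. Among them were the matrix genes Postn, Ctgf, Col6a1 and Ltbp2. Postn stood at 1604 CPM ± 489 against 251 ± 106, and was found in 90.9% of the cells. Ctgf, a matricellular growth factor, stood at 360 CPM ± 176 against 64.0 ± 104, Col6a1, a collagen VI chain, at 174 ± 41.8 against 12.2 ± 9.40, and Ltbp2, which binds elastic fibres, at 73.9 ± 26.3 against 12.2 ± 28.4. The ratio of Ctgf had a wide range over the libraries, with log2 values from 0.16 to 3.89, and that of Ltbp2 went from 0.09 to 3.20. The Wnt inhibitor genes Wif1 and Dkk3 stood at 108 CPM ± 48.1 and 169 ± 29.5, against 3.52 ± 1.85 and 12.6 ± 10.9.

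Enzymes, transporters and receptors made up another group of the 20. Nt5e encodes CD73, the ectonucleotidase that makes adenosine, and stood at 177 CPM ± 50.2 against 7.93 ± 2.80. Ank, the gene of a pyrophosphate transporter, stood at 383 CPM ± 29.7, with little spread over the 7 libraries, against 35.4 ± 12.0. Vehicle library 1, which is not among the 7, held 801 CPM of Ank. Il31ra, the receptor subunit for the itch cytokine interleukin 31, was found in 31.7% of the bulge-type cells and in 0.647% of other keratinocytes, at 64.2 CPM ± 22.6 against 0.797 ± 0.787. Chat encodes choline acetyltransferase, which makes acetylcholine, and was rarely found in the other classes. Its level was 80.5, 81.8, 89.8 and 83.7 CPM in PBMCsec libraries 1 to 4 and 112, 51.0, 51.3 and 51.9 CPM in vehicle libraries 1 to 4, against 0.299 CPM ± 0.317 in other keratinocytes and 0.311 ± 0.663 in the Id4 Scrg1 Lgr5 cells. A Chat UMI was found in 28.3% of the bulge-type cells, in 4.12% of the cells with both lists, in 0.291% of other keratinocytes and in 0% of leukocytes (0 of 2140, for which 3 counts allow up to 0.140% of cells with a UMI). The remaining members of the 20 were S100a4, Gm973, Sema3e, Wfdc3, Calml3, Them5, Pdlim3, Pdzrn4 and Crip1. S100a4 and Crip1 are abundant in leukocytes, with a UMI in 75.1% and 85.7% of them, and S100a4 varied between 417 CPM in PBMCsec library 2 and 3048 CPM in PBMCsec library 4.

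**Figure D2:**
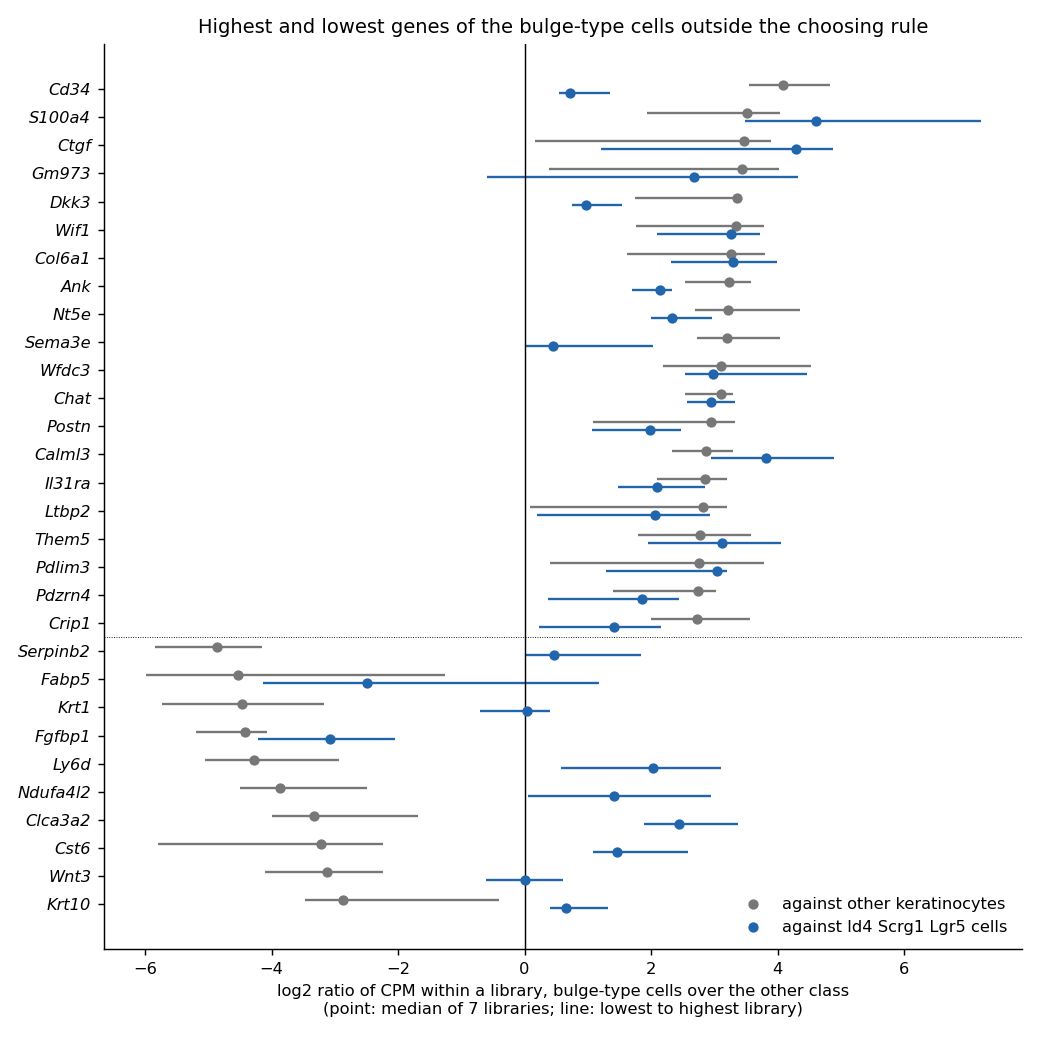
Log2 ratio of CPM within a library for the 20 genes that stood highest (above the dotted line) and the 10 that stood lowest in bulge-type cells against other keratinocytes, with the median of 7 libraries as a point and the lowest to highest library as a line. Against the Id4 Scrg1 Lgr5 cells the medians of Cd34 (0.72), Dkk3 (0.98) and Sema3e (0.45) were under 1. Those of Calml3 (3.81) and S100a4 (4.61) were above it.

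The 10 genes that stood lowest included keratins of the suprabasal epidermis. Krt1 and Krt10 stood at 14.4 CPM ± 7.92 and 82.3 ± 31.7, against 517 ± 246 and 640 ± 381 in other keratinocytes. Serpinb2 stood at 17.6 CPM ± 20.3 against 880 ± 586, Ly6d at 69.9 ± 42.1 against 1254 ± 364, and Fgfbp1, a carrier of fibroblast growth factors, at 5.14 ± 4.13 against 336 ± 122. The Wnt ligand gene Wnt3 stood at 1.58 CPM ± 2.35 against 88.6 ± 39.6. Fabp5, a fatty acid binding protein gene, stood at 651 CPM in vehicle library 3 and between 16.1 and 50.8 CPM in the other 7 libraries. The lowest 10 were completed by Ndufa4l2, Clca3a2 and Cst6. Krt14, the basal keratin, was also lower, at 2731 CPM ± 1005 against 10437 ± 890, whereas its partner Krt5 stood at 4335 ± 487 against 5098 ± 680.

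Of the 20 transcription factor genes listed for follicle stem cells, 19 were measured, 10 stood higher than in other keratinocytes and 1 lower. The higher ones were Nfib, Sox9, Foxp1, Id3, Id2, Tbx1, Foxc1, Nfatc1, Tcf7l1 and Gli2, and the lower one was Klf5, at 57.2 CPM ± 18.1 against 340 ± 129. Foxc1, which acts with Nfatc1 in keeping stem cells at rest, stood at 147 CPM ± 65.0 against 63.6 ± 25.4, and at 7.61 ± 5.71 in the Id4 Scrg1 Lgr5 cells. Nfatc1 stood at 1.10 CPM ± 1.40 in the latter, where it was found in 0.965% of the cells, and Vdr, the vitamin D receptor gene, was lower in the bulge-type cells, at 287 CPM ± 50.3 against 627 ± 203. The list's median log2 ratio was 1.15 against other keratinocytes and 0.31 against the Id4 Scrg1 Lgr5 cells, over which 8 stood higher and 1 lower. Of 14 measured genes listed as bulge and germ surface and keratin markers, 13 stood higher and none lower, with a median log2 ratio of 1.96. Against the Id4 Scrg1 Lgr5 cells 7 stood higher and 1 lower, with a median of 1.48, the lower one being the P-cadherin gene Cdh3, at 65.0 CPM ± 20.7 against 209.6 ± 27.4. Fgf18, a growth factor of resting follicles, was found in 12.2% of the bulge-type cells and in 0.486% of other keratinocytes, and Lgr6, a receptor of upper follicle stem cells, stood at 73.8 CPM ± 27.7 against 26.6 ± 9.0.

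Among genes of the BMP and TGF-beta pathways, 5 of 28 measured stood higher and 1 lower than in other keratinocytes, with a median log2 ratio of 0.38, and 8 higher and 4 lower than in the Id4 Scrg1 Lgr5 cells, with a median of 0.44. Id2 and Id3, which are classic targets of BMP signals, stood at 291 CPM ± 78.9 and 362 ± 149, against 60.2 ± 22.8 and 119 ± 16.5. A UMI of the ligand gene Bmp4 was found in 0 of 417 bulge-type cells, which allows a share of up to 0.719% of cells with a UMI and sets no limit on cells that express it, and in 16.0% of other keratinocytes, at 24.4 CPM ± 7.63. The activin inhibitor gene Fst stood at 537 CPM ± 219 and Tgfbi at 391 ± 115, against 44.7 ± 25 and 33.3 ± 22.9 in the Id4 Scrg1 Lgr5 cells. Of 18 measured Wnt pathway genes, 6 stood higher and 3 lower than in other keratinocytes, with a median log2 ratio of 0.11, and 6 higher and none lower than in the Id4 Scrg1 Lgr5 cells, with a median of 0.58. Those higher than in other keratinocytes were the receptor genes Fzd1, Fzd2, Fzd3 and Fzd7 and the inhibitor genes Dkk3 and Wif1. Those lower were Wnt3, Wnt5a and Fzd10. Those higher than in the Id4 Scrg1 Lgr5 cells were Sostdc1, Fzd7, Wif1, Fzd3, Wnt7b and Axin2. Axin2, a target of Wnt signals, stood at 19.2 CPM ± 7.80 against 25.2 ± 7.88 in other keratinocytes.

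Among neurotrophic factors and their receptors outside the choice, 3 of 11 measured genes stood higher than in other keratinocytes and none lower. The median log2 ratio was -0.10. Against the Id4 Scrg1 Lgr5 cells 1 stood higher, Gfra1, and 3 lower, with a median of -0.67. Gfra1, a receptor for GDNF family ligands, stood at 63.7 CPM ± 29.3 against 6.06 ± 1.62, and its partner kinase Ret, at 3.02 ± 3.03, was instead found in the Id4 Scrg1 Lgr5 cells, at 103 CPM ± 13. Gfra2 and the axon guidance gene Sema3e were the other members that stood higher. Ngfr and Ntn4 were also lower than in the Id4 Scrg1 Lgr5 cells, at 2.61 CPM ± 4.52 and 10.7 ± 10.3 against 59.9 ± 37.2 and 156 ± 52.1.

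Of 33 measured basement membrane genes, 6 stood higher than in other keratinocytes and none lower. Against the Id4 Scrg1 Lgr5 cells 3 were higher in the bulge-type cells and 14 lower. Those higher were Lamb3, a chain of the anchoring laminin 332, Col7a1 and Fbln1, and Lamb3 stood at 278 CPM ± 52.1 against 60.9 ± 17.2. Those lower included the collagen IV genes Col4a1 and Col4a2, at 35.4 CPM ± 19.0 and 30.6 ± 12.7 against 535 ± 158 and 294 ± 58.6, and Tnc, at 85.4 ± 44.5 against 414 ± 96.4. Egfl6, which bulge cells deposit around sensory nerve endings, stood at 48.0 CPM ± 22.6, against 2.62 ± 1.19 in other keratinocytes. The gap junction gene Gja1 and the protease inhibitor gene Timp3 stood at 149 CPM ± 107 and 101 ± 34.5, against 3054 ± 489 and 1431 ± 254 in the Id4 Scrg1 Lgr5 cells. The water channel gene Aqp3 went the other way, at 750 CPM ± 148 against 18.6 ± 16.6.

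Of 14 measured cell cycle genes, 4 stood lower than in other keratinocytes and none higher, and Mki67 was found in 5.28% of the bulge-type cells, 18.5% of other keratinocytes and 114 of the 1140 Id4 Scrg1 Lgr5 cells. The level of Mki67 was 37.6 CPM ± 30.9 against 102 ± 47.6 in other keratinocytes. The median depths given above differ between these classes, and their part in the shares was not tested. Of 25 measured immediate early and stress genes, 4 stood lower than in other keratinocytes and none higher, with a median log2 ratio of -0.55. Dusp1 stood at 299 CPM ± 120 against 887 ± 341. Against the Id4 Scrg1 Lgr5 cells the list went the other way, with a median of 1.12, and 2 genes (Hspb1 and Hspa1b) stood higher and none lower. Among cell cycle inhibitors 1 of 7 stood higher, Gas1, and 2 lower, Cdkn1a and Gadd45a.

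In each of the remaining lists at most 3 genes stood higher than in other keratinocytes. Of 18 measured genes of the FGF, EGF and IGF pathways, 3 stood higher and 2 lower. The receptor gene Fgfr1 stood at 221 CPM ± 44.6 against 58.2 ± 26.9, and the ligand genes Hbegf and Vegfa at 21.6 ± 12.8 and 14.0 ± 10.2 against 74.2 ± 21.5 and 56.9 ± 32.8. In the Notch and Hedgehog pathways 3 of 16 stood higher, namely Gas1, the Hedgehog coreceptor gene Boc, at 87.1 CPM ± 17.0 against 25.6 ± 5.87, and Gli2. A list of genes that the study names held proteases and inhibitors, but also genes such as Txnip, Fn1 and the integrin gene Itgb1. Of its 19 measured genes, 2 stood higher (Ecm1 and Pcsk6) and 2 lower (Serpinb2 and Timp3). Of 12 interferon and alarm genes, 1 stood lower, the alarmin gene Il33, at 0.431 CPM ± 0.800 against 59.4 ± 28.1. None of 13 keratins of other compartments stood higher and 6 stood lower, and of 6 transglutaminase and cornified envelope genes 1 was higher (Calml3) and 1 lower (Dsg1a). Of 11 upper follicle and sebaceous genes 5 stood lower and none higher, among them Cst6 and Aldh3a1, at 85.2 CPM ± 22.2 and 20.8 ± 13.2 against 1434 ± 1085 and 119 ± 33.2. Against the Id4 Scrg1 Lgr5 cells 5 of the 11 stood higher, Cst6 among them, and 2 lower, with a median log2 ratio of 1.15. Of 7 inner root sheath and matrix genes 3 stood lower, and none of 5 nuclear and haemoglobin genes passed either way. Against the Id4 Scrg1 Lgr5 cells 2 of the 19 genes that the study names stood higher and 10 lower. The lower ones included Timp3, Timp1 and Plau, but also Igfbp4, Itgb1, Itgb5, Ltbp4 and Fn1. In each of the FGF, EGF and IGF list and the Notch and Hedgehog list 1 stood higher and 4 lower. None of the cell cycle genes and their inhibitors passed, and in each of the other lists of these paragraphs at most 3 stood higher and 1 lower.

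Markers of other cell types were low in 7 of the 8 libraries. The summed level of 10 endothelial markers was at most 14.9 CPM, and that of 10 T and B cell markers at most 35.9 CPM. In these 2 lists 6 and 5 genes were at 0, Kdr, Cdh5, Trac and Cd3d among them. The 10 fibroblast markers summed to between 57.4 and 180.6 CPM, and the 10 macrophage and dendritic cell markers to at most 77.3 CPM. The choice itself held these 2 sums down, since it limited Col1a1, Col1a2 and Col3a1 and required Ptprc at 0. The melanocyte list gave 65.7 to 119 CPM, nearly all from Mitf, which stood at 79.1 CPM ± 18.9 in the bulge-type cells and 10.2 ± 4.49 in other keratinocytes, while Tyr and Pmel stood at 0.138 and 1.91 CPM. The exception was PBMCsec library 2, where the 10 smooth muscle and pericyte markers summed to 3410 CPM, against 14.0 to 57.4 CPM in the other 7. Its Acta2 came to 1529 CPM from 2 of its 10 cells, which held 75 and 112 Acta2 UMIs and 1 and 2 UMIs of Krt15. No cell of the other libraries held 10 or more. No doublet caller was used. Of the bulge-type cells 3 (0.719%) were above 15000 UMIs, against 10.49% of other keratinocytes, and 78 barcode sequences occurred in more than 1 library, among them those of 3 bulge-type cells, none of which shared its barcode with a bulge-type cell of another library.

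The 417 cells were not uniform in Krt15. Its median over cells was 12576 CPM, and 71 cells (17.0%) stood below 2000 CPM, a limit set after the values were seen, of which 34 held no Krt15 UMI and 2 were the cells with Acta2. Of the 417 cells, 52 lay between 1000 and 4000 CPM. Whether the low cells are another type of follicle cell was not tested. Median depths were 5542 UMIs in the low and 6117 in the high cells. The low cells were 2 of 28, 2 of 10, 31 of 158 and 8 of 46 cells in PBMCsec libraries 1 to 4, and 0 of 9, 1 of 16, 19 of 98 and 8 of 52 in vehicle libraries 1 to 4. No gene of the opposing list was found in 39.4% of the Krt15-low cells and in 8.38% of the Krt15-high cells.

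Levels on both sides were taken in the 4 libraries with at least 8 Krt15-low cells. Lhx2, which helped to choose the cells, stood at 568 CPM ± 190 in the low and 652 ± 118 in the high cells. Outside the choice, Sox9 stood at 741 ± 307 and 719 ± 87.8, and Nfatc1 at 129 ± 42.7 and 130 ± 13.5. The genes that stood higher in the low cells in each of the 4 libraries were led by Pthlh, the parathyroid hormone related peptide gene, at 453 CPM ± 267 against 40.3 ± 22.8. They included Aspn, a small leucine-rich proteoglycan gene, at 666 ± 186 against 62.4 ± 56.5, and Krtdap, at 1104 ± 775 against 98.8 ± 52.4. Krt17 stood at 9097 CPM ± 4017 against 1877 ± 220, Prdm1, the gene of the repressor Blimp1, at 99.8 ± 78.3 against 5.12 ± 4.79, and Tgfb2 at 374 ± 145 against 86.3 ± 34.5. Cd34 was among the genes that stood lower, at 69.0 CPM ± 45.9 against 430 ± 41.5, together with the skin chemokine gene Ccl27a, at 105 ± 83.6 against 674 ± 272, and Dclk1, at 12.8 ± 10.5 against 133 ± 73.9. Sfrp1, a gene of the opposing list used in the choice, stood at 255 ± 286 against 759 ± 172. Chat was found on both sides, in 28.2% and 28.3% of the cells.

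**Figure D3:**
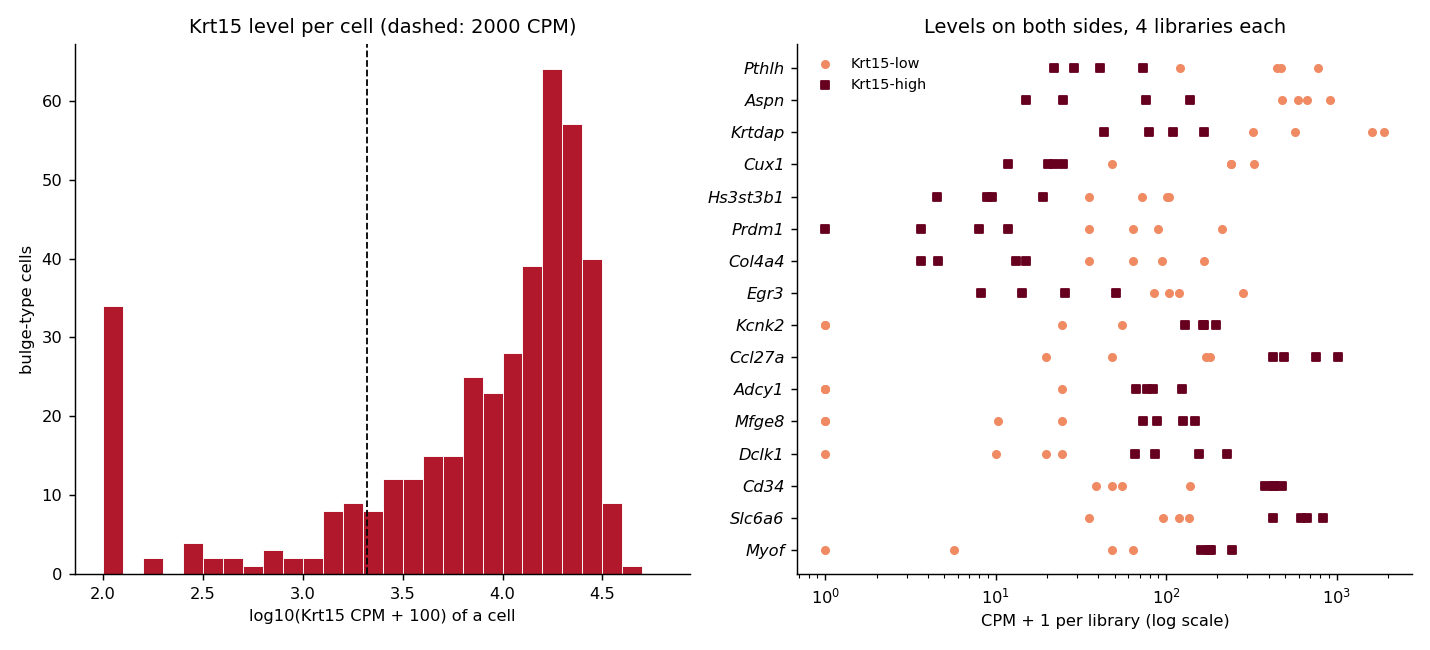
Left, Krt15 level of each of the 417 cells as log10(CPM + 100), with a dashed line at 2000 CPM. Right, levels (CPM + 1, log scale) of 8 genes that stood higher and 8 that stood lower in the 71 Krt15-low than in the 346 Krt15-high cells, with 1 point per library for the 4 libraries with at least 8 low cells. Cd34 lies at 69.0 CPM on average in the low and 430 in the high cells.

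The share of bulge-type cells was compared between PBMCsec and vehicle. Of all cells that passed, they made up 2.59%, 1.89%, 6.24% and 2.88% in PBMCsec libraries 1 to 4, and 2.83%, 3.91%, 3.38% and 2.98% in vehicle libraries 1 to 4. The means were 3.40% ± 1.94 and 3.27% ± 0.483 (SD, n = 4 each), a difference of 0.124 percentage points that is smaller than the spread (exact two-sided permutation test, p = 0.971, the smallest p this design allows being 0.0286). Of keratinocytes they made up 7.22%, 8.55%, 15.5% and 6.19% after PBMCsec and 13.6%, 10.2%, 6.21% and 6.33% after vehicle. The means were 9.37% ± 4.21 and 9.09% ± 3.55 (exact two-sided permutation test, p = 0.914, n = 4 each). PBMCsec library 3 held 37.9% of all bulge-type cells, and without it the difference in the share of all cells was -0.822 percentage points. With at most 5% mitochondrial counts the mean shares of all cells were 1.80% after PBMCsec and 1.48% after vehicle, and those of keratinocytes 5.96% and 3.63% (exact two-sided permutation test, p = 0.8286 and 0.543, n = 4 each). Exact 95% binomial intervals, which cover counting error only, ran from 5.33% to 7.25% of cells in PBMCsec library 3 and from 2.75% to 4.10% in vehicle library 3, the largest libraries of their groups by cells passed.

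**Figure D4:**
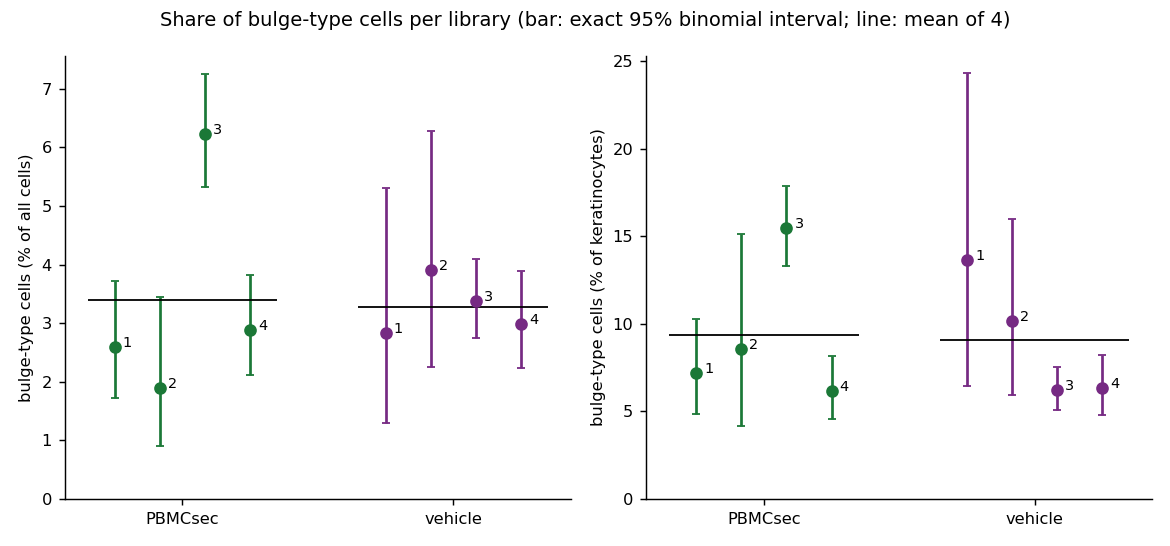
Bulge-type cells as percent of all cells that passed (left) and of keratinocytes (right) in each library, with exact 95% binomial intervals, library numbers and a line at the mean of 4. The groups overlap on both scales, and PBMCsec library 3 is the highest, at 6.24% and 15.5%.

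The levels within the bulge-type cells were compared between PBMCsec and vehicle on the summed counts of each library, leaving out vehicle library 1, which held 9 cells. Of 5280 genes tested over 4 PBMCsec and 3 vehicle libraries, 0 (0.0%) passed an adjusted p of 0.05 (edgeR quasi-likelihood test with Benjamini-Hochberg adjustment). At an unadjusted p under 0.05, 79 genes (1.5%) were higher and 71 (1.34%) lower, and DESeq2 and limma-voom also called 0. Some other edgeR settings did call genes. There were 5 without a filter on low counts, 8 with the library number as a block and 1 with libraries of 20 or more cells. Leaving out vehicle library 2 gave 1, and leaving out vehicle library 3 gave 2. The groups did not overlap for 107 genes (2.03%) that were higher and 120 (2.27%) that were lower after PBMCsec. The 3 vehicle libraries held 16, 98 and 52 of these cells.

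No gene of the lists of follicle stem cell transcription factors, of bulge and germ markers and of neurotrophic factors passed, of 17, 14 and 3 tested. Their median log2 fold changes were -0.09, -0.02 and 0.18, against 0.01 for all genes. Krt15 came to 13323 normalized CPM ± 1141 after PBMCsec and 12691 ± 2996 after vehicle, and Cd34 to 305 ± 107 and 359 ± 26.0. Sox9 came to 716 ± 116 and 891 ± 228, Nfatc1 to 128 ± 32.7 and 145 ± 29.1, and Postn to 1727 ± 604 and 1429 ± 192. All 5 differed by less than the spread in at least 1 of the groups.

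The lowest unadjusted p among genes with groups that did not overlap belonged to Pou3f1, an epidermal POU transcription factor gene, at 51.3 normalized CPM ± 16.1 after PBMCsec and 115 ± 26.5 after vehicle. This is a log2 fold change of -1.25 (SE 0.29), with an adjusted p of 0.911 by edgeR. Gclc, of glutathione synthesis, came to 32.5 ± 11.5 and 79.9 ± 14.7, and Sat1, of polyamine breakdown, to 38.5 ± 10.5 and 87.8 ± 20.7. The 8 lower genes of lowest unadjusted p without overlap were completed by Gm13305, Ramp1, Csnk1e, Sh3pxd2a and Lrrc4. Among those higher, Serpinh1, the collagen chaperone gene, came to 265 ± 86.0 and 132 ± 38.9, and Swt1 to 63.7 ± 13.1 and 23.2 ± 11.5. Serpinh1 stood at 205, 391, 246 and 217 in PBMCsec libraries 1 to 4, and at 177, 108 and 111 in vehicle libraries 2 to 4. PBMCsec library 2, the highest, kept its 2 cells with Acta2 in this comparison, and their part in the value was not tested. Serpinh1 passed only with the library number as a block, with an adjusted p of 0.0396 by edgeR. Ctgf came to 450 ± 184 after PBMCsec and 238 ± 18.3 after vehicle, and Chat to 84.9 ± 4.88 and 50.7 ± 1.56, each with an adjusted p of 0.9996 by edgeR. Vehicle library 1, which was left out, held 112 CPM of Chat and 435 CPM of Ctgf, so that neither gene separated the groups once it was counted. Of the 16 genes named for lowest unadjusted p, a selection from the 107 and 120 without overlap, 1 higher (Serpinh1) and 3 lower (Gclc, Sh3pxd2a and Lrrc4) still did. Serpinb11, Idi1, Hsph1 and Mrpl9 completed the 8 higher genes.

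**Figure D5:**
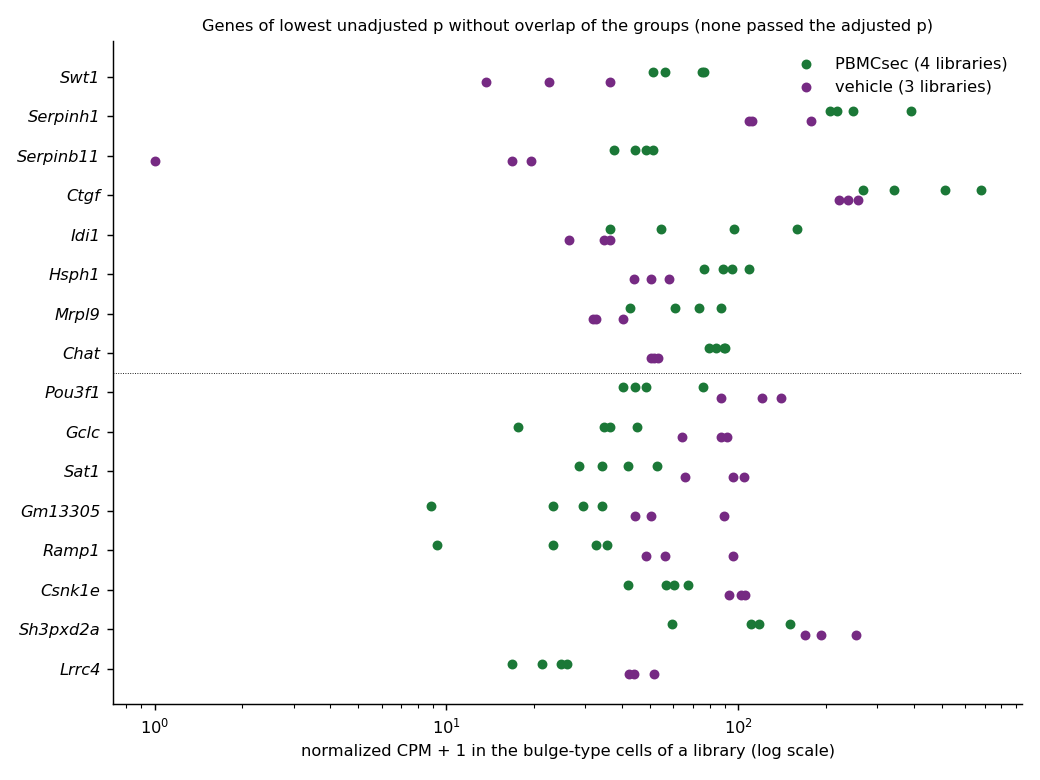
Normalized CPM + 1 (log scale) in the bulge-type cells of each of 4 PBMCsec and 3 vehicle libraries, for the 8 higher and 8 lower genes of lowest unadjusted p among those whose groups do not overlap. None of the 16 passed the adjusted p in this comparison without a block, and they were chosen for this separation.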

How the data were processed

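The authors deposited, for each of 8 libraries, raw UMI counts of 31053 genes in every barcode called as a cell by Cell Ranger (3.0.2 per the labels), with reads on mm10. Libraries were prepared with a 3' droplet kit. A cell was kept with 500 to 4000 genes, up to 20000 UMIs and up to 10% of mitochondrial counts. No doublet caller was run. Gm42418, Gm17056 and Gm26917 were removed, as the study did. The bulge-type cells and the gene lists (469 genes in 26 lists, 468 in the files) were chosen with earlier results of these data known, and the limits of Acta2 and Krt15 after seeing the values. The 22 genes of the choice were not tested.

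Levels are counts of a class summed within a library, per 1000000. A gene stood higher or lower where its median within-library log2 ratio reached 1 and all libraries with 10 cells lay on that side. PBMCsec and vehicle were compared with edgeR 4.0.16 (TMM, filterByExpr, robust quasi-likelihood test; biological coefficient of variation 0.205), with DESeq2 1.42.0 and limma 3.58.1 as alternatives, under R 4.3.3. Shares were compared with scipy 1.17.1 by exact permutation. The edgeR step was tested on simulated data before use. Named were the 8 markers, the 20 highest genes found in 25% of the cells, the 10 lowest, the 8 rises and 8 falls of lowest unadjusted p without overlap, and list members of highest level. Cells of 1 library share their source, so libraries were the replicates. The control solutions and time points of the study could not be mapped to libraries and were not used here.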

Additional observations from a re-analysis of the deposited data

Results flagged for a closer look

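In 70 sets of 4 libraries, 1 library stood far from the others of its group 8 times; chance flags about 1 set in 20. Vehicle library 1, with 9 bulge-type cells, stood above the other vehicle libraries in Ank (801 CPM, next 427), Sema3e (365 CPM, next 162), Chat (112 CPM, next 51.9) and Postn (3834 CPM, next 1638). PBMCsec library 2, with 10 cells, stood low in Crip1 (801 CPM, next 1328) and high in Acta2 (1529 CPM, next 14.9). PBMCsec library 1 stood high in Sox9 (906 CPM, next 666), and PBMCsec library 3 low in Them5 (79.2 CPM, next 149). The part of the small number of cells in these values was not tested.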

How the results depend on the processing

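The difference in share between PBMCsec and vehicle changed sign between settings. With 4 libraries a group the exact p of the alternatives lay between 0.543 and 1. With 1 library left out, or with signs flipped over the 4 numbers as a block, the test cannot pass 0.05. Of all cells it was -0.321 percentage points with at least 3 markers, -0.0698 with cells thinned to 3000 UMIs, -1.13 in libraries numbered 1 and 2 alone, 1.38 in those numbered 3 and 4 alone, and 0.311 with 5% mitochondrial counts. Of keratinocytes it was -0.160, -0.265, -4.03, 4.58 and 2.33 under the same settings, and -0.155 without the cells with 10 or more Acta2 UMIs, an alternative chosen after seeing the data. Leaving out 1 library at a time gave -0.822 to 0.626 points of all cells and -1.77 to 1.79 of keratinocytes, below 0 without PBMCsec library 3, and also without vehicle library 1 for all cells and without vehicle library 3 or 4 for keratinocytes.

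Against 0 genes called, edgeR called 5 without a filter on low counts, 1 with libraries of 20 or more cells, and 0 to 2 with 1 library left out (1 without vehicle library 2 and 2 without vehicle library 3). Except without vehicle library 3, Gdf10 was among the genes called in each of these, lower after PBMCsec. Defb6 and Ndufa4l2 were called without vehicle library 3. DESeq2, limma-voom, RLE factors, totals alone, every library, 5% mitochondrial counts and 5 markers gave 0. Of 254 alternative values of the 16 named genes, 253 kept their sign and their side of the threshold, and the other passed it with the block.

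With the library number as a replicate block, over the 6 libraries numbered 2 to 4, 8 of 5729 genes were called: Hspb1, Fam13a, Gm12840, Serpinh1, Msmo1 and Gpha2 higher, and Gdf10 and Krt79 lower. The same 6 libraries without the block gave 0 of 5050, so that the block and the genes kept by the filter changed together. Serpinh1 had an adjusted p of 0.0396 by edgeR with the block and of 0.0938 or more under its other alternatives. The share differed by 0.124 points of all cells and 0.272 of keratinocytes. Deviations of libraries with the same number correlated by 0.17, 0.0044, 0.15 and 0.26, against at most 0.074 between different numbers. Since number 2 did not exceed 0.1 and the labels name nothing shared, the numbers were not taken as pairs. Counts of genes that stood higher or lower than in the other classes moved by less than 1.5 times with 5% mitochondrial counts or 5 markers.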

Other observations

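Gdf10, a BMP-family ligand gene found in 8.63% of the bulge-type cells and 0.374% of leukocytes, was under the count filter of the comparison of PBMCsec and vehicle and was not tested there. It was tested under 4 alternatives, and was lower after PBMCsec in all 4, with adjusted p between 0.000946 and 0.0396 by edgeR. All 4 kept vehicle libraries 3 and 4, which held its highest levels, and the count filter, where used, read the same counts. The 4 results are therefore not independent of each other. The level of Gdf10 was 12.1, 0, 4.83 and 23.9 CPM in PBMCsec libraries 1 to 4. It was 0, 0, 69.8 and 82.5 CPM in vehicle libraries 1 to 4, so that the groups overlapped over the 8 libraries. Krt79, a keratin gene of the upper follicle, was tested under 4 alternatives, passed in 2, and stood at 4.03, 0, 15.5 and 17.9 CPM after PBMCsec and 28.1, 6.37, 49.3 and 100.8 CPM after vehicle. Both genes were chosen after their values were seen, and the libraries above 40 CPM were vehicle libraries 3 and 4 in both cases.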
